A study of Mus musculus with 8 samples.

Results

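The 10 genes described here form the nuclear arm of the Hippo pathway: the coactivators Yap1 and Wwtr1 (the gene for TAZ), the DNA-binding factors Tead1, Tead2, Tead3 and Tead4, and the target genes Ctgf, Cyr61, Ankrd1 and Amotl2. They were picked out by gene symbol, by a rule that uses no measured value, and are 10 of the 38991 genes listed for each culture. Levels are FPKM, which divide the fragments of a gene by its transcript length and by a total for the culture. They can therefore be set side by side between genes. How that total was scaled between cultures was not given in the sources used here. A gene entered the tests where 2 or more cultures listed it at an FPKM of 1 or above. This left 12927 genes, 9 of the 10 among them, since Ankrd1 was listed at 0 throughout.

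The Hippo pathway is a kinase cascade in which the MST kinases switch on the LATS kinases, and LATS phosphorylates YAP and TAZ so that they are held in the cytoplasm or degraded. When the cascade is quiet, YAP and TAZ enter the nucleus and bind the TEAD proteins, which carry them to DNA. In the early mouse embryo, YAP with Tead4 is known for switching on trophectoderm genes such as Cdx2 in the outer cells. Messenger RNA levels of these genes do not report where the YAP protein is or whether it is phosphorylated.

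All 8 cultures were Rex1GFPd2 (RGd2) mouse embryonic stem cells (ESCs) of strain 129, a single line with a short-lived GFP reporter at the Rex1 locus. Every culture had spent 6 passages in 2i and 5 more in its own condition, and was taken at passage 11. The medium was N2B27 on gelatin, with splitting every 3 days at 15000 cells per square centimetre. The 4 conditions, with 2 cultures each, combined the cytokine LIF, the GSK3 inhibitor CHIR99021 (CH, 3 µM) and the MEK inhibitor PD0325901 (PD, 1 µM): 2i+LIF had all of them, 2i had CH and PD, LIF+PD lacked CH, and CH+LIF lacked PD. Each comparison therefore asks what one fewer or one exchanged signal does to these genes. The labels do not say whether the cultures of a condition were handled apart, so the p-values measure the spread between these cultures, which may be technical.

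The total number of reads behind each culture was not given, so no counting interval was computed from reads. Each deposited value has a lower and an upper bound, wide for some values. In 2i replicate 1 the bounds were 9.96 to 26.4 for Ctgf (FPKM 18.1) and 0.603 to 12.1 for Tead3 (FPKM 6.35). From the ratios between cultures of the FPKM of genes below 0.5, the relative depth was lowest in 2i replicate 1, at 0.499 times that of 2i+LIF replicate 1, and 0.903 to 1.18 times in the other 6 cultures. Between 11659 and 12109 genes reached an FPKM of 1 in a culture. All 8 naive ESC markers examined (Zfp42, Pou5f1, Sox2, Nanog, Esrrb, Klf4, Tfcp2l1 and Tbx3) did so in all 8 cultures.

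The largest changes among these genes were in Tead4 and in the secreted targets Ctgf and Cyr61. Tead4 was at about the same level with CH and LIF together and lower in both conditions that lacked either of them. Cyr61 was lowest in 2i and highest in LIF+PD, and Ctgf was lowest in CH+LIF and highest in LIF+PD. Each of these differences is given below with its test, the moderated test of limma on log2(FPKM + 1), in 1 fit of all 12927 genes and 8 cultures with Benjamini-Hochberg adjusted p-values.

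Against 2i+LIF, 4 of the 9 tested genes passed an adjusted p of 0.05 in 2i (Tead1 higher, Tead4, Cyr61 and Amotl2 lower), where 18.6% of all tested genes did (9.77% higher and 8.86% lower). In LIF+PD, 4 of 9 passed (Tead2, Ctgf and Cyr61 higher, Tead4 lower), beside 25.2% of all genes (14.8% higher and 10.4% lower). In CH+LIF, 2 of 9 passed (Tead2 and Ctgf, both lower), beside 25.4% (12.2% higher and 13.3% lower). The median log2 difference of the 9 genes was 0.13 in 2i, 0.20 in LIF+PD and -0.07 in CH+LIF, and that of all tested genes was 0.04, 0.03 and 0.01. These 3 comparisons use the same 2i+LIF cultures.

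Between the conditions with a single component missing, 4 of 9 genes passed in LIF+PD against 2i (Ctgf, Cyr61 and Amotl2 higher, Tead1 lower), beside 25.1% of all genes (14% higher and 11.1% lower). In CH+LIF against 2i, 6 of 9 passed (Tead4, Cyr61 and Amotl2 higher, Tead1, Tead2 and Ctgf lower), beside 23.9% (10.6% higher and 13.3% lower). In CH+LIF against LIF+PD, 4 of 9 passed (Tead4 higher, Tead2, Ctgf and Cyr61 lower), beside 30.4% (12.6% higher and 17.8% lower). Yap1, Wwtr1 and Tead3 passed in none of the 6 comparisons with limma at an adjusted p of 0.05. At an unadjusted p of 0.05, Yap1 alone of these passed, in LIF+PD against 2i+LIF.

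**Figure D1:**
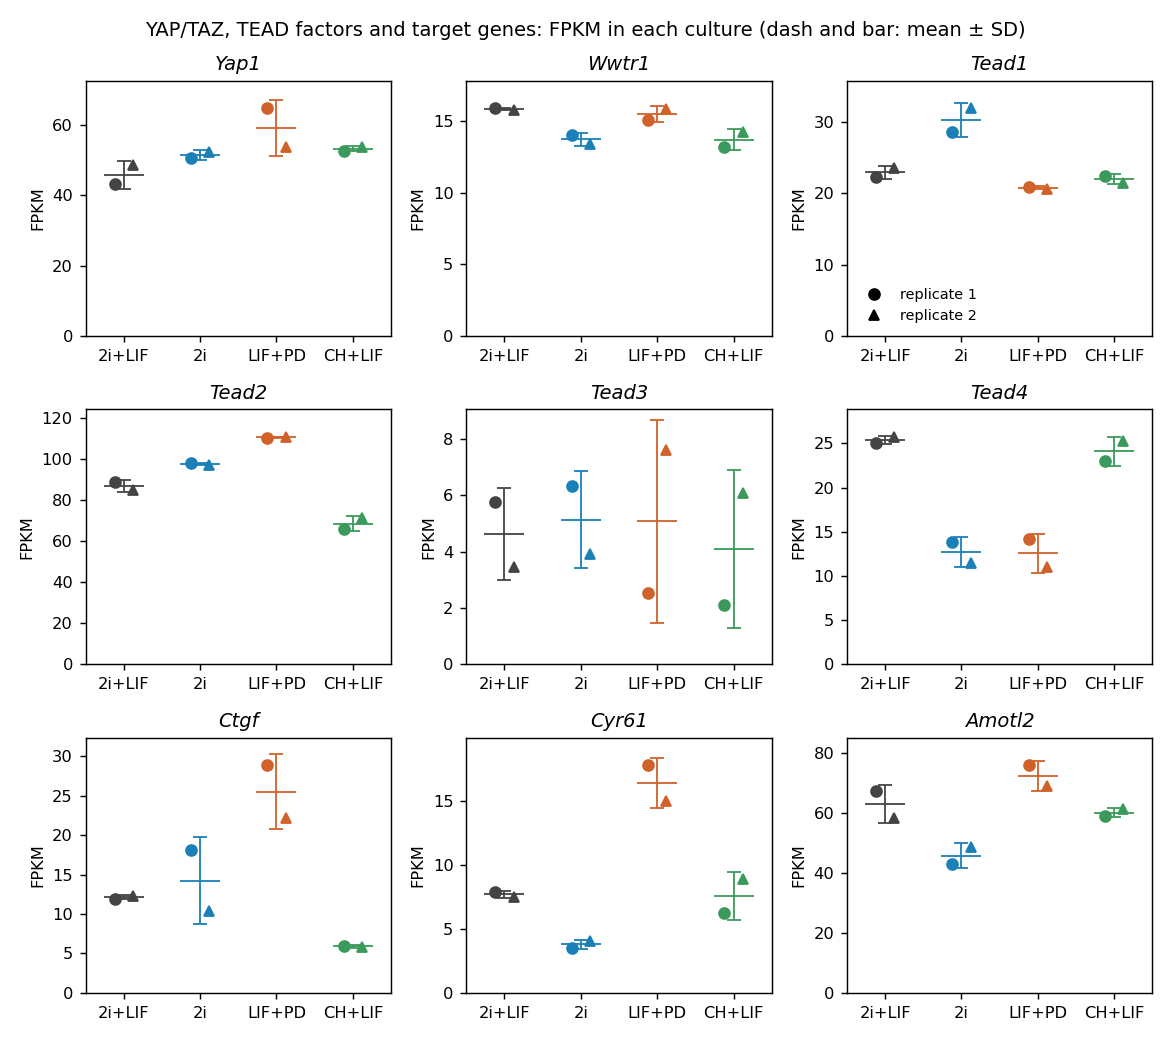
FPKM of the 9 tested genes (y axis, from 0) in the 4 conditions (x axis), with circles for replicate 1, triangles for replicate 2, and a dash and bar for the mean ± SD of 2 cultures. Tead4 separates 2i and LIF+PD (11.02 to 14.1) from 2i+LIF and CH+LIF (23.0 to 25.8), and Cyr61 is highest in both LIF+PD cultures (17.8 and 15.0).

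Yap1 (chr9:7931999-8004596, mm10, minus strand) encodes the main YAP coactivator and was the more abundant of the pair in every culture. Its FPKM was 43.0 and 48.6 in 2i+LIF, 50.5 and 52.4 in 2i, 64.7 and 53.5 in LIF+PD, and 52.7 and 53.8 in CH+LIF. Both 2i+LIF cultures were below the other 6, and LIF+PD replicate 2 lay within the range of 2i and CH+LIF. On average 82.6% of tested genes had a lower level than Yap1. The log2 difference from 2i+LIF was 0.36 in LIF+PD (95% interval 0.10 to 0.62, adjusted p = 0.0526), 0.22 in CH+LIF (-0.04 to 0.47, adjusted p = 0.194) and 0.17 in 2i (-0.09 to 0.43, adjusted p = 0.332), none past the test. Yap1 did pass in LIF+PD when the FPKM were rescaled to a common sum per culture (TPM; 0.49, adjusted p = 0.0311) or without LIF+PD replicate 2 (0.49, adjusted p = 0.0385), and in CH+LIF under TPM (0.42, adjusted p = 0.0494). Without LIF+PD replicate 1, the LIF+PD difference was 0.22. Yap1 shares 116 exonic bases with Gm20416, a gene on the opposite strand at an FPKM of 2.13 to 5.27.

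Wwtr1 (chr3:57455649-57575910, minus strand) encodes TAZ, the other coactivator of the pair. The gene had an FPKM of 15.9 and 15.8 in 2i+LIF, 14.0 and 13.4 in 2i, 15.1 and 15.8 in LIF+PD, and 13.2 and 14.2 in CH+LIF. Both 2i and both CH+LIF cultures were below all 4 of the others, by a small margin. No comparison passed, and the widest difference, CH+LIF against 2i+LIF, was -0.20 on the log2 scale (95% interval -0.41 to 0.02, adjusted p = 0.16). The ratio of Yap1 to Wwtr1 FPKM was 2.89 ± 0.26 (SD, n = 2) in 2i+LIF, 3.75 ± 0.219 in 2i, 3.83 ± 0.643 in LIF+PD and 3.89 ± 0.152 in CH+LIF. In each culture of 2i+LIF this ratio was lower than in any other culture.

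Among the TEAD genes, Tead2 was the most abundant in every culture, and Tead3 the least. The 4 genes summed to an FPKM of 142 and 137 in 2i+LIF, 147 and 144 in 2i, 148 and 150 in LIF+PD, and 113 and 124 in CH+LIF. Tead2 supplied 62.1 ± 0.732% of the sum in 2i+LIF, 67.0 ± 0.36% in 2i, 74.2 ± 0.526% in LIF+PD and 57.7 ± 0.493% in CH+LIF (SD, n = 2). The share of Tead4 was 18.2 ± 0.782% in 2i+LIF and 20.3 ± 0.0944% in CH+LIF, against 8.71 ± 1.07% in 2i and 8.46 ± 1.57% in LIF+PD. The Tead2 share did not overlap between any pair of conditions, the Tead4 share set 2i+LIF and CH+LIF apart from 2i and LIF+PD, and the sum was lower in both CH+LIF cultures than in the other 6. No test was run on these shares.

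**Figure D2:**
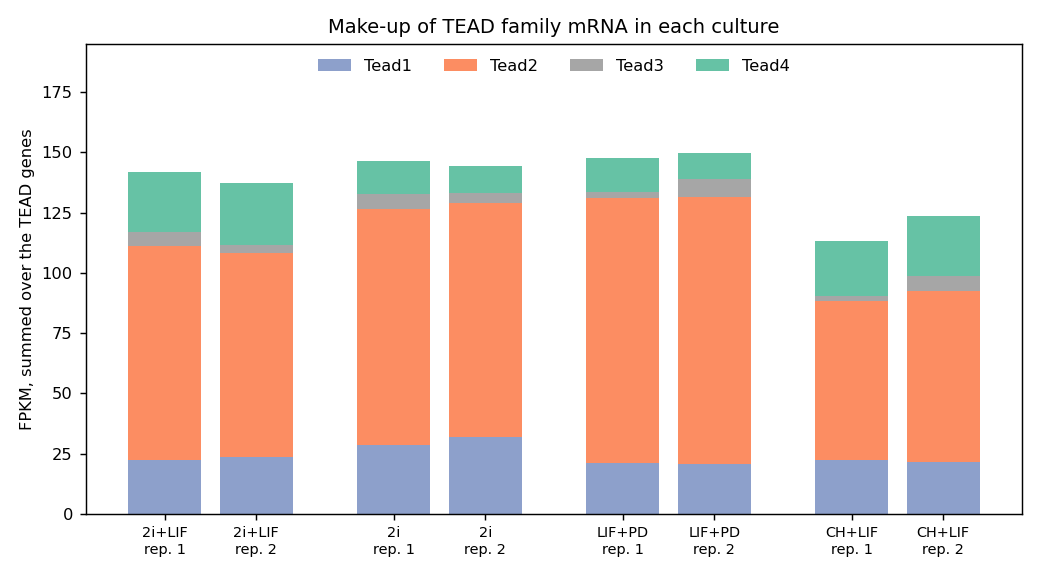
FPKM of Tead1, Tead2, Tead3 and Tead4 stacked (y axis, from 0) for each of the 8 cultures (x axis). The Tead4 segment is about as tall in CH+LIF as in 2i+LIF and shorter in 2i and LIF+PD, and the whole stack is lowest in CH+LIF (113 and 124).

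Tead4 (chr6:128224288-128300823, minus strand) is the TEAD gene known for its role in the trophectoderm. Its FPKM was 25.0 and 25.8 in 2i+LIF, 23.0 and 25.2 in CH+LIF, 13.9 and 11.5 in 2i, and 14.1 and 11.02 in LIF+PD. All 4 cultures with CH and LIF together were above all 4 cultures that lacked one of them. The log2 difference from 2i+LIF was -0.95 ± 0.14 in 2i (SE, adjusted p = 0.0048) and -0.97 ± 0.14 in LIF+PD (adjusted p = 0.00357), which is 0.516 and 0.511 times the 2i+LIF level of FPKM + 1. In CH+LIF it was -0.07 (95% interval -0.41 to 0.26, adjusted p = 0.739), with a positive sign under TPM (0.12). LIF+PD against 2i did not pass either, at -0.01 (-0.35 to 0.32). CH+LIF was higher than 2i by 0.88 (adjusted p = 0.00591) and than LIF+PD by 0.89 (adjusted p = 0.00389). Tead4 kept these 4 calls under all 14 alternative settings.

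Tead1 (chr7:112679318-112906807, plus strand) was higher in 2i than in any condition with LIF. The values were 28.5 and 31.9 in 2i, against 22.3 and 23.6 in 2i+LIF, 20.9 and 20.6 in LIF+PD, and 22.5 and 21.5 in CH+LIF, without overlap of 2i and the rest. The log2 difference of 2i from 2i+LIF was 0.38 ± 0.09 (SE, adjusted p = 0.0288), and it was lost without 2i+LIF replicate 1 (adjusted p = 0.139), 2i+LIF replicate 2 (0.0890) or 2i replicate 2 (0.119). LIF+PD was lower than 2i (log2 difference -0.52, adjusted p = 0.00667), a call kept under all 14 alternatives. CH+LIF was lower than 2i too (-0.44, adjusted p = 0.0148). This last call was lost under TPM (adjusted p = 0.115) and without 2i replicate 2 (0.0651), CH+LIF replicate 1 (0.0554) or CH+LIF replicate 2 (0.0718). The ratio of Tead4 to Tead1 FPKM was 1.11 ± 0.0225 in 2i+LIF and 1.10 ± 0.109 in CH+LIF (SD, n = 2). It was 0.424 ± 0.0894 in 2i and 0.605 ± 0.1 in LIF+PD (SD, n = 2). Tead4 was thus below Tead1 in 2i and LIF+PD. In 2i+LIF and CH+LIF it was only slightly above Tead1, with a ratio of 1.02 in CH+LIF replicate 1.

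Tead2 (chr7:45215753-45233635, plus strand) is the TEAD gene associated with early embryonic cells, and 90.1% of tested genes were less abundant. Its FPKM was 110.1 and 110.7 in LIF+PD, 97.8 and 97.1 in 2i, 88.9 and 84.6 in 2i+LIF, and 65.8 and 71.0 in CH+LIF. The 4 conditions did not overlap. The log2 difference from 2i+LIF was 0.34 ± 0.07 in LIF+PD (SE, adjusted p = 0.016) and -0.34 ± 0.07 in CH+LIF (adjusted p = 0.0171), and 0.17 in 2i (95% interval -0.01 to 0.34, adjusted p = 0.166). CH+LIF was lower than LIF+PD (-0.68, adjusted p = 0.000794) and than 2i (-0.51, adjusted p = 0.00414), and these calls were kept under all 14 alternatives.

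The Tead2 calls against 2i+LIF were less stable. That in LIF+PD was lost without 2i+LIF replicate 1 (adjusted p = 0.054), 2i+LIF replicate 2 (0.0879), LIF+PD replicate 1 (0.0763) or LIF+PD replicate 2 (0.0784). That in CH+LIF was lost without 2i+LIF replicate 1 (0.0943), 2i+LIF replicate 2 (0.0563) or CH+LIF replicate 1 (0.0966), and under TPM, where the log2 difference was -0.14 (adjusted p = 0.312). TPM moved the median of all genes in CH+LIF against 2i+LIF up by 0.17, and relative to that median Tead2 was at -0.32. The deposited FPKM of Tead2 lay above its own deposited upper bound in all 8 cultures, which was so for no other of the 10 genes and for 1.99 to 3.61% of all entries of a culture. Tead2 also shares 13 exonic bases with Cd37, a leukocyte membrane protein gene on the opposite strand, which had an FPKM of 22.3 and 16.9 in 2i and 1.03 and 1.21 in CH+LIF. The strand setting of the FPKM was not given in the sources used here, and the part of Cd37 in the Tead2 values was not tested.

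Tead3 (chr17:28331671-28350805, minus strand) was the least abundant TEAD gene, at an FPKM of 5.77 and 3.47 in 2i+LIF, 6.35 and 3.92 in 2i, 2.52 and 7.62 in LIF+PD, and 2.12 and 6.08 in CH+LIF. The cultures of a condition lay farther apart than the means of any pair of conditions, and all conditions overlapped. The intervals of its log2 differences from 2i+LIF were wide, from -1.11 to 1.37 in 2i and from -1.47 to 1.01 in CH+LIF, so a log2 change of 1 in either direction lay within them.

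The target genes divided into those measured and Ankrd1, which was listed at 0 in all 8 cultures. Ankrd1 (chr19:36111965-36119844, minus strand) encodes a nuclear ankyrin repeat protein best known in muscle, and is a standard YAP reporter gene in other cell types. TEAD proteins bind a short DNA word, GGAATG on one strand and CATTCC on the other. The word was searched on both strands in the 250 bases before each RefSeq start (build GRCm38.p6). Of 32851 such windows, 12.6% held at least 1 copy and 1.02% held at least 2. Of the 10 windows of the genes described here, 8 held a copy, which is the count to set beside the 12.6%. The windows of Wwtr1 overlap and hold the same copy. By gene, 6 of the 7 with a window held a copy in at least 1 of them, and Tead2 held none. No share by gene was computed over all windows. No window was at hand for Ctgf, Tead1 and Tead4.

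The 3 windows printed are those of the target genes, one of them at 0 in these cells, one at an intermediate level and one abundant. They are given 5′ to 3′ on the strand of the gene, and the last base lies next to the RefSeq start. Capitals mark the word. Cyr61 is chr3:145649986-145650235, minus strand, with CATTCC beginning 103 bases before the start. Amotl2 is chr9:102717554-102717803, plus strand, with CATTCC 65 bases before a start that lies within the gene as listed. Ankrd1 is chr19:36119845-36120094, minus strand, with GGAATG 210 and 123 bases before the start.
Cyr61: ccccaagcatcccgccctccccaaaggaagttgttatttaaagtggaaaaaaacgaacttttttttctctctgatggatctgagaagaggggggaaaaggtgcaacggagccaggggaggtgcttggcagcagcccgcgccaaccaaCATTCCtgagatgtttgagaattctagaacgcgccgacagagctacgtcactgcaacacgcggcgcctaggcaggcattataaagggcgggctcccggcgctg
Amotl2: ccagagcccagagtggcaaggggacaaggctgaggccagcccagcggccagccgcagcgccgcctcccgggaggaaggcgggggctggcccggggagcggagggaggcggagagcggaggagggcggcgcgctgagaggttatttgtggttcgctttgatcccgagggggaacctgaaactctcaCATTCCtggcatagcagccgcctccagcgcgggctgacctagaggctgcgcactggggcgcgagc
Ankrd1: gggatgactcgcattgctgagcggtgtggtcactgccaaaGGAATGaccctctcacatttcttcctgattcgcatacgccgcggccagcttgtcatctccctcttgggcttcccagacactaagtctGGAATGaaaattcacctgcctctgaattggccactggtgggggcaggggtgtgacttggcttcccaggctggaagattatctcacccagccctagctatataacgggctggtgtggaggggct
The gene listed at 0 thus held 2 copies and the 2 measured targets 1 each. A match of letters is a description and not a binding site.

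Cyr61 (Ccn1, chr3:145646971-145649985, minus strand) encodes a secreted matrix-associated protein. Its FPKM was 3.53 and 4.04 in 2i, 7.88 and 7.50 in 2i+LIF, 6.21 and 8.89 in CH+LIF, and 17.8 and 15.0 in LIF+PD. Both 2i cultures were the lowest and both LIF+PD cultures the highest, while 2i+LIF and CH+LIF overlapped. Against 2i+LIF, Cyr61 was higher in LIF+PD by a log2 difference of 1.00 ± 0.17 (SE, adjusted p = 0.00688) and lower in 2i, with -0.86 ± 0.17 (adjusted p = 0.0152). The CH+LIF difference was -0.04 (95% interval -0.45 to 0.37, adjusted p = 0.887), with a positive sign under TPM (0.14).

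LIF+PD against 2i, which exchanges CH for LIF, gave the second largest difference of any of the 10 genes, 1.86 ± 0.17 for Cyr61 (adjusted p = 0.000496), or 3.63-fold in FPKM + 1. CH+LIF was higher than 2i by 0.82 (adjusted p = 0.0157) and lower than LIF+PD (-1.04, adjusted p = 0.0047). The calls of LIF+PD against 2i+LIF, 2i and CH+LIF were kept under all 14 alternatives. The call of 2i against 2i+LIF was lost without 2i+LIF replicate 1 (adjusted p = 0.0797), 2i+LIF replicate 2 (0.0683) or 2i replicate 1 (0.0684), and that of CH+LIF against 2i without 2i replicate 1 (0.0719) or CH+LIF replicate 2 (0.0652).

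Ctgf (Ccn2, chr10:24595442-24598683, plus strand) encodes a related secreted protein of the same CCN family and was ordered differently. Its FPKM was 6.01 and 5.79 in CH+LIF, 11.9 and 12.3 in 2i+LIF, 18.1 and 10.4 in 2i, and 28.9 and 22.1 in LIF+PD. The CH+LIF cultures were the lowest and the LIF+PD cultures the highest, and the 2 cultures of 2i lay on either side of 2i+LIF. CH+LIF against LIF+PD gave -1.93 ± 0.24 on the log2 scale (SE, adjusted p = 0.00138), 0.263 times the LIF+PD level of FPKM + 1, the largest difference of any of the 10 genes. It was kept under all 14 alternatives.

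Against 2i+LIF, Ctgf was higher in LIF+PD by 1.00 ± 0.24 (adjusted p = 0.0226) and lower in CH+LIF, with -0.93 ± 0.24 (adjusted p = 0.0299). In 2i the log2 difference was 0.17 (95% interval -0.39 to 0.73, adjusted p = 0.659). The LIF+PD call was lost with no filter on low values (adjusted p = 0.0539) and without 2i+LIF replicate 1 (0.0973), 2i+LIF replicate 2 (0.085) or LIF+PD replicate 1 (0.119). The CH+LIF call was lost with no filter (0.0717) and without any one of 2i+LIF replicate 1 (0.106), 2i+LIF replicate 2 (0.116), CH+LIF replicate 1 (0.109) and CH+LIF replicate 2 (0.105).

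Ctgf in LIF+PD was also higher than in 2i, by 0.83 ± 0.24 (adjusted p = 0.0421). That call was lost with no filter (0.0883) and without any one culture other than 2i replicate 1, at adjusted p-values of 0.0647 to 0.193. The difference without 2i replicate 2 was 0.46. CH+LIF was lower than 2i (-1.10, adjusted p = 0.0179). This call was lost without CH+LIF replicate 1 (0.0729) or CH+LIF replicate 2 (0.0737), and the difference was -0.72 without 2i replicate 1. Ctgf shares 665 exonic bases with Gm15270, a gene on the opposite strand that reached an FPKM of at most 0.568. The ratio of Ctgf to Cyr61 FPKM was 1.58 ± 0.0877 in 2i+LIF and 1.55 ± 0.106 in LIF+PD, 3.85 ± 1.82 in 2i and 0.81 ± 0.223 in CH+LIF (SD, n = 2). Ctgf was thus above Cyr61 in all cultures other than the 2 of CH+LIF.

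Amotl2 (chr9:102716672-102733418, plus strand) encodes an angiomotin family protein that binds YAP and holds it back, and is itself a YAP target. It was the most abundant target, with a level above that of 84.7% of tested genes. Its FPKM was 42.9 and 48.8 in 2i, 59.1 and 61.3 in CH+LIF, 67.4 and 58.4 in 2i+LIF, and 76.0 and 69.0 in LIF+PD. Both 2i cultures were below the other 6 and both LIF+PD cultures above them. The log2 difference of 2i from 2i+LIF was -0.45 ± 0.11 (SE, adjusted p = 0.0282), and it was lost under TPM (adjusted p = 0.0805) and without 2i+LIF replicate 1 (0.144) or 2i replicate 1 (0.118).

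LIF+PD was higher than 2i by 0.65 ± 0.11 for Amotl2 (adjusted p = 0.00508), a call kept under all 14 alternatives. CH+LIF was higher than 2i by 0.39 (adjusted p = 0.0378). That call was lost with no filter (0.0625), and without 2i replicate 1 (0.162), CH+LIF replicate 1 (0.111), CH+LIF replicate 2 (0.136), LIF+PD replicate 1 (0.0516) or LIF+PD replicate 2 (0.0518). Neither LIF+PD (0.20, 95% interval -0.05 to 0.45, adjusted p = 0.206) nor CH+LIF (-0.06, -0.31 to 0.19, adjusted p = 0.717) passed against 2i+LIF, and the sign in CH+LIF was positive under TPM (0.14). As in Cyr61, the order ran from 2i up to LIF+PD, over a narrower range.

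**Figure D3:**
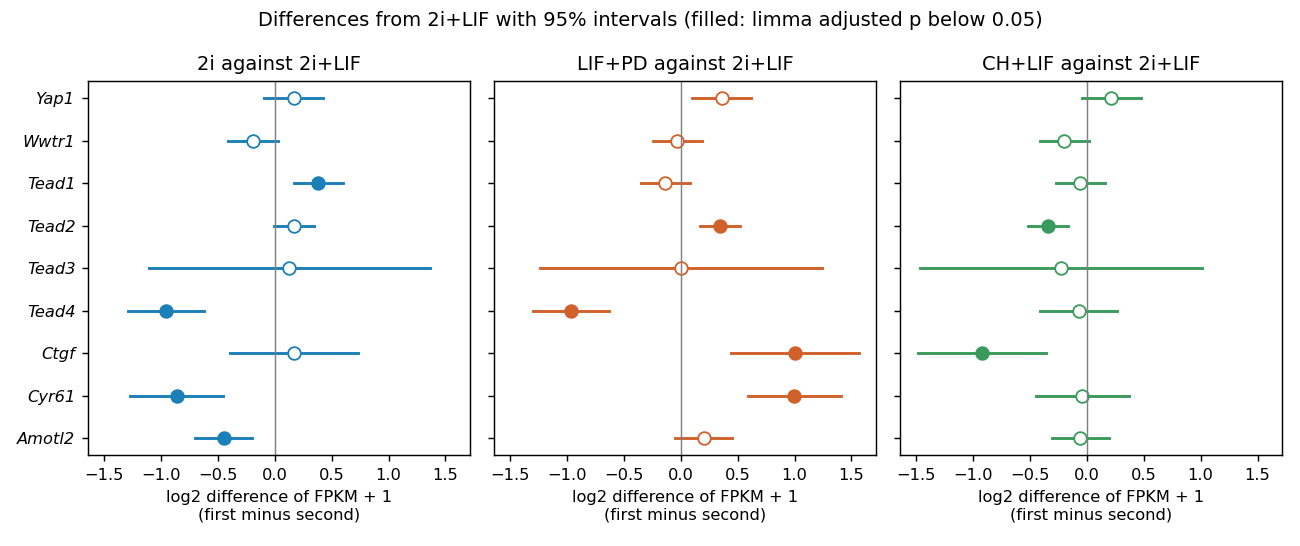
Log2 difference of FPKM + 1 (x axis) from 2i+LIF for the 9 tested genes (y axis) in 2i, LIF+PD and CH+LIF, with lines for the 95% interval and filled points for a limma adjusted p below 0.05. Tead4 is near -1 in 2i and LIF+PD and near 0 in CH+LIF, Ctgf and Cyr61 are near 1 in LIF+PD, and the lines of Tead3 are the widest.

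Other Hippo components, upstream of YAP or binding TEAD, were compared as a list of 27 genes that held none of the 10. Of these, 23 were tested (Fat4, Dchs1, Vgll1 and Vgll2 were too low). In 2i, 7 of 23 passed against 2i+LIF, 4 higher and 3 lower, beside the 18.6% of all genes. In LIF+PD, 4 of 23 passed, all 4 higher, a smaller share than the 25.2% of all genes, and in CH+LIF 8 of 23, 3 higher and 5 lower, beside 25.4%. The medians of the 23 log2 differences were 0.11, 0.16 and -0.02. The count of 8 in CH+LIF was 4 without 2i+LIF replicate 1, 3 without 2i+LIF replicate 2 and 3 without CH+LIF replicate 1. Of the core cascade, Stk3, Sav1, Lats1, Lats2, Mob1a and Mob1b passed in none of these 3 comparisons, and Stk4, an MST kinase, passed in CH+LIF, at an FPKM of 24.05 and 23.93 against 18.1 and 17.0 in 2i+LIF (log2 difference 0.43, adjusted p = 0.0113), a call lost without 2i+LIF replicate 2 (adjusted p = 0.0696) or CH+LIF replicate 1 (0.0609).

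In 2i, the components with the largest changes were Ptpn14 and Amotl1, which rose, and Vgll3 and Frmd6, which fell. Ptpn14, a phosphatase that binds YAP and keeps it out of the nucleus, had an FPKM of 6.60 and 8.81 in 2i against 2.82 and 3.28 in 2i+LIF, a log2 difference of 1.10 (adjusted p = 0.00567). Amotl1, a relative of Amotl2, rose from 3.12 and 3.27 to 6.63 and 7.07 (0.90, adjusted p = 0.00758). Vgll3, a vestigial-like cofactor that binds TEAD proteins, was at 0.973 and 1.36 in 2i against 4.11 and 4.25 (-1.26, adjusted p = 0.00253). Frmd6, a membrane-associated activator of the cascade, was at 3.60 and 4.00 against 7.58 and 7.96 (-0.87, adjusted p = 0.00473).

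LIF+PD had the highest Ptpn14, 15.2 and 12.4 (log2 difference from 2i+LIF 1.87, adjusted p = 0.000548). Map4k4, a kinase that acts on LATS, was at 76.5 and 74.4 against 40.8 and 41.0 in 2i+LIF (0.87, adjusted p = 0.000383). Ajuba, a LIM protein that restrains LATS, was at 61.7 and 58.3 against 36.3 and 35.1 (0.73, adjusted p = 0.000839). Nf2, which encodes Merlin and recruits LATS to the membrane, was at 122.2 and 100.7 against 73.8 and 74.0 (0.58, adjusted p = 0.00936), a call lost without 2i+LIF replicate 1 (adjusted p = 0.0509). Both activators and restrainers of LATS were therefore among the 4 that rose.

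CH+LIF had Vgll3 at 1.13 and 1.43 (log2 difference from 2i+LIF -1.19, adjusted p = 0.00307) and Frmd6 at 3.56 and 4.06 (-0.87, adjusted p = 0.00441). Amotl1 was at 1.47 and 1.65, below its 2i+LIF level (-0.71, adjusted p = 0.0157). The Amotl1 call was lost without 2i+LIF replicate 1 (0.0653), 2i+LIF replicate 2 (0.077) or CH+LIF replicate 1 (0.0838). Wwc2, of the KIBRA family of LATS activators, was at 11 and 11.4 against 17.9 and 17.5 (-0.61, adjusted p = 0.005). Amotl1 was thus higher than 2i+LIF in 2i and lower in CH+LIF, while Vgll3 and Frmd6 were lower in both. Between the other conditions, 11 of the 23 components passed in LIF+PD against 2i (9 higher, 2 lower), beside 25.1% of all genes. In CH+LIF against 2i, 6 of 23 passed (1 higher, 5 lower), beside 23.9%. In CH+LIF against LIF+PD, 11 of 23 passed (1 higher, 10 lower), beside 30.4%.

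The second list held 16 other YAP/TAZ target genes of a published cross-cancer signature, of which 12 were tested (Crim1, Foxf2, Ccdc80 and Rbms3 were too low). Lats2 and Ptpn14 also belong to that signature and were kept in the list of components, so these counts leave them out. Against 2i+LIF, 4 of 12 passed in 2i (3 higher, 1 lower), beside 18.6% of all genes, 5 of 12 in LIF+PD (4 higher, 1 lower), beside 25.2%, and 4 of 12 in CH+LIF (3 higher, 1 lower), beside 25.4%. The medians of the 12 log2 differences were -0.01, 0.29 and 0.04. Gadd45a, a stress and growth arrest gene, was higher in all 3 conditions: 7.09 and 7.28 in 2i+LIF, 31.2 and 26.1 in 2i, 44.8 and 42.6 in LIF+PD, and 19.8 and 22.6 in CH+LIF. Its log2 differences were 1.85 (adjusted p = 0.000159), 2.45 (adjusted p = 5.98e-05) and 1.44 (adjusted p = 0.000585).

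Other targets passed in 1 or 2 conditions. Myof, a membrane repair protein gene, was lower in 2i (17.3 and 14.6, log2 difference -1.06, adjusted p = 0.00414) and CH+LIF (16.4 and 19.8, -0.89, adjusted p = 0.00683) than in 2i+LIF (32.8 and 35.5). In 2i, Igfbp3, which encodes a binding protein of insulin-like growth factors, was at 9.26 and 9.63 against 3.42 and 3.74 (1.19, adjusted p = 0.00163). The ligand gene Tgfb2 was at 2.13 and 2.34 against 0.669 and 0.538 in 2i+LIF (1.01, adjusted p = 0.00708), lost without 2i+LIF replicate 2 (adjusted p = 0.0507). Igfbp3 was also higher in LIF+PD, at 7.59 and 6.54 (0.81, adjusted p = 0.00553).

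In LIF+PD, the kinase gene Nuak2 was at 9.72 and 7.94 against 1.86 and 1.61 in 2i+LIF (1.84, adjusted p = 0.00148). Dock5, an exchange factor for Rac, was at 14.9 and 11.8 against 5.32 and 5.04 (1.21, adjusted p = 0.00103). Nt5e, the gene of the ecto-enzyme CD73, was listed at 0 in both LIF+PD cultures against 1.34 and 0.673 (adjusted p = 0.0196). Its call was lost with a pseudocount of 5 (adjusted p = 0.0656) and without 2i+LIF replicate 1 (0.107), LIF+PD replicate 1 (0.0829) or LIF+PD replicate 2 (0.081). In CH+LIF, Nt5e was at 5.92 and 7.26 (1.93, adjusted p = 0.00191) and Fjx1, related to the four-jointed gene of flies, at 6.27 and 5.70 against 2.85 and 3.00 (0.83, adjusted p = 0.00655). Between the other conditions, 6 of 12 passed in LIF+PD against 2i (4 higher, 2 lower, median log2 difference 0.31), beside 25.1% of all genes. In CH+LIF against 2i, 5 of 12 passed (2 higher, 3 lower, median 0.05), beside 23.9%. In CH+LIF against LIF+PD, 8 of 12 passed (2 higher, 6 lower, median -0.65), beside 30.4%.

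**Figure D4:**
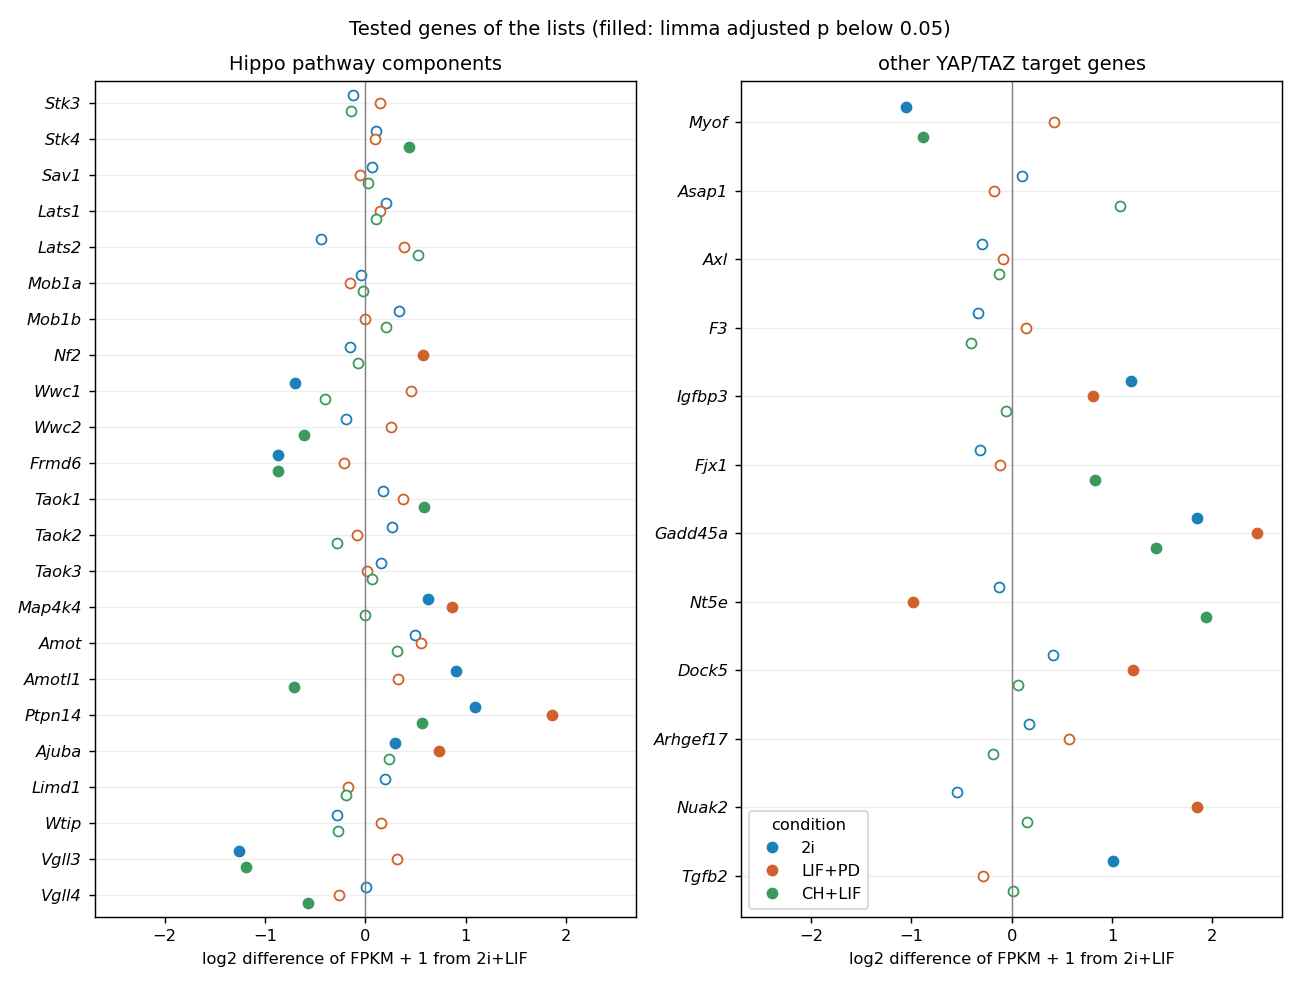
Log2 difference of FPKM + 1 from 2i+LIF (x axis) for the 23 tested Hippo pathway components and the 12 tested other YAP/TAZ target genes (y axis), in 2i (blue), LIF+PD (orange) and CH+LIF (green), with filled points for a limma adjusted p below 0.05. Ptpn14 and Gadd45a are highest in LIF+PD (1.87 and 2.45), and Vgll3 is near -1.2 in 2i and CH+LIF.

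Marker genes of other cell types were summed in each culture. The summed FPKM of 10 trophectoderm markers was 81.6 to 98.7 in LIF+PD, 51.8 to 58.1 in 2i+LIF, 55.4 to 59.4 in 2i and 44.7 to 50.6 in CH+LIF. In LIF+PD, 6 of the 10 reached an FPKM of 1 in both cultures (4 in 2i+LIF, 7 in 2i and 5 in CH+LIF), led by Tfap2c (45.4 and 52.8) and Gata3 (14.4 and 18.4). Cdx2 was at 0.0433 and 0.096 there, against 12.2 and 10.6 in 2i, 10.2 and 7.91 in 2i+LIF, and 1.90 and 0.733 in CH+LIF, and Elf5 and Hand1 stayed below 1 throughout. Cdx2 is a textbook target of Tead4 in the embryo, and a link between the levels of Cdx2 and Tead4 was not tested here. The part of the trophectoderm markers in the high Ctgf and Cyr61 of LIF+PD was not tested.

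The sum of 8 primitive endoderm markers was 56.1 to 64.7 in LIF+PD, 20.1 to 25.1 in 2i+LIF, 7.71 to 9.08 in 2i and 15.8 to 20.0 in CH+LIF. Here 3 of the 8 reached 1 in both LIF+PD cultures, and 1 or 2 in each other condition. The LIF+PD sum was mostly Col4a1, a basement membrane collagen, at 41.1 and 42.9. Of the factors that define that lineage, Gata4 was at 1.93 and 1.83 in LIF+PD, 0.973 and 1.41 in 2i+LIF, 1.17 and 0.725 in 2i, and 0.986 and 0.756 in CH+LIF, and Gata6, Sox7, Sox17, Foxa2 and Pdgfra were below 1 in all 8 cultures. Dab2, also on the list, was left out because its symbol had 2 entries. The primitive endoderm sum was lowest in 2i and highest in LIF+PD, as were Cyr61 and Amotl2, and its part in their levels was not tested. Different genes made the ends of that order. Lama1 was at 5.79 and 4.18 in 2i, 17.4 and 21.9 in 2i+LIF, and 12.3 and 18.5 in LIF+PD. Col4a1 was at 1.33 and 1.73 in 2i and 0.917 and 0.986 in 2i+LIF.

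Of 5 mesoderm markers, 1 or 2 reached 1 in both cultures of a condition, and their sum was 19.7 to 37.7 in CH+LIF, 9.56 to 17.5 in 2i, 10.7 to 13.1 in 2i+LIF and 6.65 to 7.56 in LIF+PD. T, or Brachyury, made up most of it in CH+LIF (36.3 and 18.5), and Mesp1 and Tbx6 were below 1 throughout. Gsc ran the other way, at 7.71 and 6.26 in 2i+LIF and 6.77 and 6.10 in LIF+PD. It was at 1.53 and 0.175 in 2i and 0.654 and 0.499 in CH+LIF, so the order of the sum is not that of each marker. Fibroblast markers, 8 in all with at most 1 above that level in both cultures of a condition, summed to 0.27 to 0.617 in 2i+LIF, 1.496 to 4.19 in 2i, 1.80 to 2.73 in LIF+PD and 4.00 to 17.1 in CH+LIF. That marker was Thy1, at 2.85 and 2.95 in CH+LIF, 1.40 and 3.43 in 2i, and 1.11 and 1.23 in LIF+PD. Thy1 was at 0.117 and 0.160 in 2i+LIF. The highest value of the list was Postn at 14.1 in CH+LIF replicate 2, which was 0 in CH+LIF replicate 1. Col3a1, Lum and Dcn were listed at 0 in all 8 cultures. The CH+LIF range of the fibroblast sum overlapped that of 2i, and its upper end rested on Postn in that 1 culture. The part of the mesoderm and fibroblast markers in the Ctgf levels was not tested. In RNA from whole cultures, fewer cells of a type and less RNA per cell cannot be told apart.

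For each tested gene, the genes with the most similar pattern were found by Pearson's r of log2(FPKM + 1) over the 8 cultures, among 4694 genes with a range of at least 1 on that scale. These values describe 8 points that fall into 4 pairs, and carry no test. Tead4 was most like Tfcp2l1 (r = 0.993), a naive transcription factor gene. The study describes Tfcp2l1 as directly targeted by both LIF and CH signalling. Its FPKM was 115 and 123 in 2i+LIF, 108 and 119 in CH+LIF, 62.8 and 53.7 in 2i, and 57.0 and 48.9 in LIF+PD. Frmd4b (0.991) and Pgc (0.969) came next for Tead4. Cyr61 was most like Tjp3 (0.995), a tight junction protein gene, with Zfp516 (0.987) and Zbtb8a (0.981), and Ctgf most like Kazn (0.983), Ifitm2 (0.979) and Mreg (0.978).

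For the remaining genes the nearest patterns were Mov10 (0.991), Pipox (0.990) and Cdhr1 (0.985) for Tead2, and Slc46a3 (0.990), Efemp1 (0.980) and 1810059H22Rik (0.977) for Tead1. Amotl2 was nearest to Nupr1 (0.976), Gls2 (0.973) and Gm20603 (0.961). Wwtr1, whose own range was 0.25, had Fabp3 (0.979), 2210409E12Rik (0.973) and Mafa (0.973). Yap1, with a range of 0.58, had Rnf144a (0.916), Dgkh (0.911) and Gm26547 (0.908), and Tead3 had Manea (0.899), Smim4 (0.814) and Spint5 (0.779), the loosest matches of the 9.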

How the data were processed

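RNA from 8 RGd2 ESC cultures, 2 in each of 4 conditions, was profiled by RNA-seq, and groups were taken from the sample titles. The deposited values are FPKM per gene with a lower and an upper bound, 1 table per culture. The authors aligned single-end reads to mm10 (Ensembl release 75). The submitters' processing notes name TopHat2, Cufflinks and Cuffdiff with no role given, and the program that made the bounds was not given in the sources used here. The labels call the libraries polyA RNA, whereas the study's methods describe removal of ribosomal RNA. The authors' own tests ran on read counts, which were not used here.

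Because FPKM are not counts, log2(FPKM + 1) of the 12927 genes listed at an FPKM of 1 or above in 2 or more cultures was fitted with limma 3.58.1 in R 4.3.3 (group means, mean-variance trend, 4 residual degrees of freedom, two-sided, Benjamini-Hochberg over all 12927 genes). The added 1 makes the fold change of a low gene look smaller than it was. Each file has 39013 entries, 22 of them with a repeated identifier. Tables and figures were made with Python 3.11.15, pandas 2.3.3, numpy 2.4.6 and matplotlib 3.10.9. In data simulated for CH+LIF against 2i+LIF on 12927 genes, 70.3% of 200 genes changed by a log2 value of 1 were recovered, and 4.08% of the calls were false. Only these genes were changed, all with a mean log2(FPKM + 1) above 2, under normally distributed noise. In the real comparison 25.4% of genes passed, so the share recovered does not give the power for these data. Promoter windows are from RefSeq, build GRCm38.p6.

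The 10 genes, the gene lists and the markers were chosen with earlier results of these data known, although the rule itself, a match of gene symbols, uses no value. The list of other targets was written from knowledge of a cross-cancer YAP signature. The text names all 10 genes, up to 4 genes a list with the largest change past the test in each comparison against 2i+LIF, and the 3 genes of most similar pattern. Of the list genes outside this rule, Stk3, Stk4, Sav1, Lats1, Lats2, Mob1a, Mob1b and Asap1 were named after their values were seen. Alternatives were pseudocounts of 0.1 and 5, no filter, TPM, median-of-ratios scaling, a replicate block, and leaving out each culture.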

Additional observations from a re-analysis of the deposited data

How the results depend on the processing

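The 24 differences past the test among the 9 genes were recomputed under 14 alternatives. Of 336 values, 288 stayed past the test with the same sign, 48 missed it with the same sign, and none changed sign. Of the 24, 12 were past the test in every alternative. When 1 culture was left out, the lone culture of its condition was assumed to vary like the others. The number of genes past the test then ranged from 1 to 4 in 2i against 2i+LIF (4 with all cultures), 2 to 4 in LIF+PD against 2i+LIF (4) and 0 to 2 in CH+LIF against 2i+LIF (2). It ranged from 3 to 4 in LIF+PD against 2i (4) and 2 to 6 in CH+LIF against 2i (6), and was 4 throughout in CH+LIF against LIF+PD. The count of 0, by limma, came without 2i+LIF replicate 1, 2i+LIF replicate 2 or CH+LIF replicate 1, and at an unadjusted p of 0.05 the count was 2 in each (Ctgf and Tead2). With no filter on low values, 1 gene passed in CH+LIF against 2i+LIF (Tead2). With a pseudocount of 5, the Cyr61 difference was -0.53 in 2i against 2i+LIF and 0.51 in CH+LIF against 2i, both still past the test.

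Over all genes, the count with all cultures was 2408 in 2i, 3263 in LIF+PD and 3286 in CH+LIF against 2i+LIF. It was 3242 in LIF+PD against 2i, 3089 in CH+LIF against 2i and 3928 in CH+LIF against LIF+PD. Leaving out 1 culture of the conditions compared lowered this count, in most cases more than 1.5-fold. Leaving out a culture of another condition moved it less than 1.5-fold. TPM raised the median of all genes by 0.17 in CH+LIF against 2i+LIF, 0.12 in LIF+PD against 2i+LIF and 0.12 in CH+LIF against 2i. In all 6 comparisons the share of calls that were higher was greater under TPM: it went from 52.5 to 61.8% in 2i, 58.6 to 74.9% in LIF+PD and 47.9 to 74.1% in CH+LIF against 2i+LIF. It went from 55.6 to 64.4% in LIF+PD against 2i, 44.5 to 64.0% in CH+LIF against 2i and 41.5 to 50.2% in CH+LIF against LIF+PD. Tead1 in CH+LIF against 2i+LIF, not past the test, changed sign to 0.14 under TPM.

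The labels give replicate numbers 1 and 2 in each condition. Deviations of same-numbered cultures correlated at -0.0283 to 0.0925. For 19.2% of the 12927 genes and 0 of the 9, replicates 1 and 2 kept the same order in all 4 conditions. The sum of FPKM was higher in replicate 1 in each condition. Whether same-numbered cultures were handled together was not given and was not tested. With the replicate number as a block, the counts were 4 in 2i, 4 in LIF+PD and 2 in CH+LIF against 2i+LIF, 4 in LIF+PD against 2i, 6 in CH+LIF against 2i and 4 in CH+LIF against LIF+PD. The block changed no call of the 9 genes. Over all genes, it raised the calls in each comparison, from 2408 to 2547 in 2i against 2i+LIF. The depth of the libraries is unknown, and 2 cultures a condition limit the precision.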

Other observations

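Lats2, a kinase that phosphorylates YAP, had an FPKM of 7.27 and 1.51 in the LIF+PD cultures, 5.85 and 2.69 in CH+LIF, 3.94 and 1.47 in 2i+LIF, and 1.78 and 1.38 in 2i. Replicate 1 was the higher in all 4 conditions, and 19.2% of all tested genes kept the same replicate order in all 4. The deposited bounds of Lats2 overlapped within each condition, at 1.40 to 17.2 and 1.06 to 3.36 in LIF+PD.

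Asap1, on the list of other YAP/TAZ targets, had an FPKM of 38.8 and 101 in CH+LIF and 22.7 to 37.0 in the other 6 cultures.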
